A study of Mus musculus with 5 samples.

Results

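Described here are 10 genes of macrophage lipid handling and scavenging: Apoe, Trem2, Gpnmb, Spp1, Lpl, Cd36, Fabp5, Mrc1, Folr2 and Cd163. They were taken by symbol from the feature list of the 2 expression libraries, and all 10 were found among its 32245 gene symbols. The mice were BALB/c, 6 weeks old, and carried CT26, a mouse colon carcinoma line, under the skin. One group received 100 µg of the anti-CTLA-4 antibody clone 9H10 into the peritoneum on days 5, 8 and 11, and the control group received phosphate-buffered saline on the same days. CTLA-4 restrains T cell activation by competing for the ligands of CD28. Mice were sacrificed on day 13, and the labels name the material only as tissue, with no statement of how many animals were pooled. Each treatment gave 1 droplet expression library, so no difference below has a replicate check and no test was made. All intervals are exact 95% intervals that cover counting error only.

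Macrophages take up lipoproteins, oxidised lipids, dying cells and haemoglobin complexes through scavenger receptors, break them down in lysosomes and export cholesterol to lipoproteins. Apoe encodes the apolipoprotein that accepts this cholesterol, and Trem2 a lipid-sensing receptor that signals through Tyrobp and Syk. Lpl encodes the lipase that frees fatty acids from lipoproteins, Cd36 a receptor for fatty acids and oxidised lipoprotein, and Fabp5 an intracellular fatty acid carrier. Mrc1 is the mannose receptor, Folr2 folate receptor beta, and Cd163 the receptor for haemoglobin bound to haptoglobin. Spp1 encodes the secreted protein osteopontin and Gpnmb a membrane glycoprotein of lysosomes and melanosomes. Trem2, Gpnmb, Spp1, Lpl, Cd36 and Fabp5 are often grouped as genes of lipid-laden tumour macrophages, and Mrc1, Folr2 and Cd163 as genes of resident macrophages.

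The control library held 5649 barcodes and the anti-CTLA-4 library 4186, of which 5234 and 3946 cells were kept. Their median depths were 7415 and 3189 unique molecular identifiers (UMIs, counted molecules) per kept cell, and 20 barcodes occurred in both libraries. The monocyte/macrophage-like class held 1111 control cells (21.2% of kept cells) and 442 anti-CTLA-4 cells (11.2%). Clusters were made without the 10 genes and named from other markers. Within the class, C1q macrophage-like cells without cycling genes numbered 329 and 55, cycling C1q macrophage-like cells 87 and 1, Arg1/Nos2-like cells 22 and 142, and monocyte-like cells 107 and 10. Interferon-response genes such as Isg15 and Rsad2 led the monocyte-like group. Other myeloid subclusters kept no name and are called by a leading gene. All 6 C1q macrophage markers were present in the C1q group, and they summed to 14133 UMIs per 1000000 UMIs of the group (CPM) in control cells and to 14042 CPM in anti-CTLA-4 cells. T cell markers summed to 10.9 and 19.6 CPM there, and Cd3d, Cd3g and Cd5 were at 0 in the control.

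Of the 10 genes, 4, namely Trem2, Mrc1, Folr2 and Cd163, had over 90% of their UMIs within the monocyte/macrophage-like class in both libraries. The shares in the control and anti-CTLA-4 libraries were 94.4% and 97.1% for Trem2, 91.9% and 95.9% for Mrc1, 97.3% and 95.5% for Folr2, and 98.7% and 94.1% for Cd163. For Apoe they were 81.4% and 67.9%. How many of all genes had over 90% of their UMIs in the class was not computed. These shares also depend on the size of the class, 21.2% of kept control and 11.2% of kept anti-CTLA-4 cells. For Gpnmb, Spp1, Lpl, Cd36 and Fabp5 the highest level among groups of at least 15 cells lay outside the class in both libraries. For Fabp5 after anti-CTLA-4 the counting interval of that highest group, keratinocyte-like cells, overlapped that of the myeloid Mmp12-led subcluster. A single cell held a large part of those keratinocyte-like UMIs, as given below. With doublets kept, control Gpnmb was highest in an unnamed Gzma-led myeloid subcluster of 15 control cells. By where their RNA was counted, Apoe, Trem2, Mrc1, Folr2 and Cd163 thus lay mostly in the class, and the other 5 genes less clearly so.

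**Figure D1:**
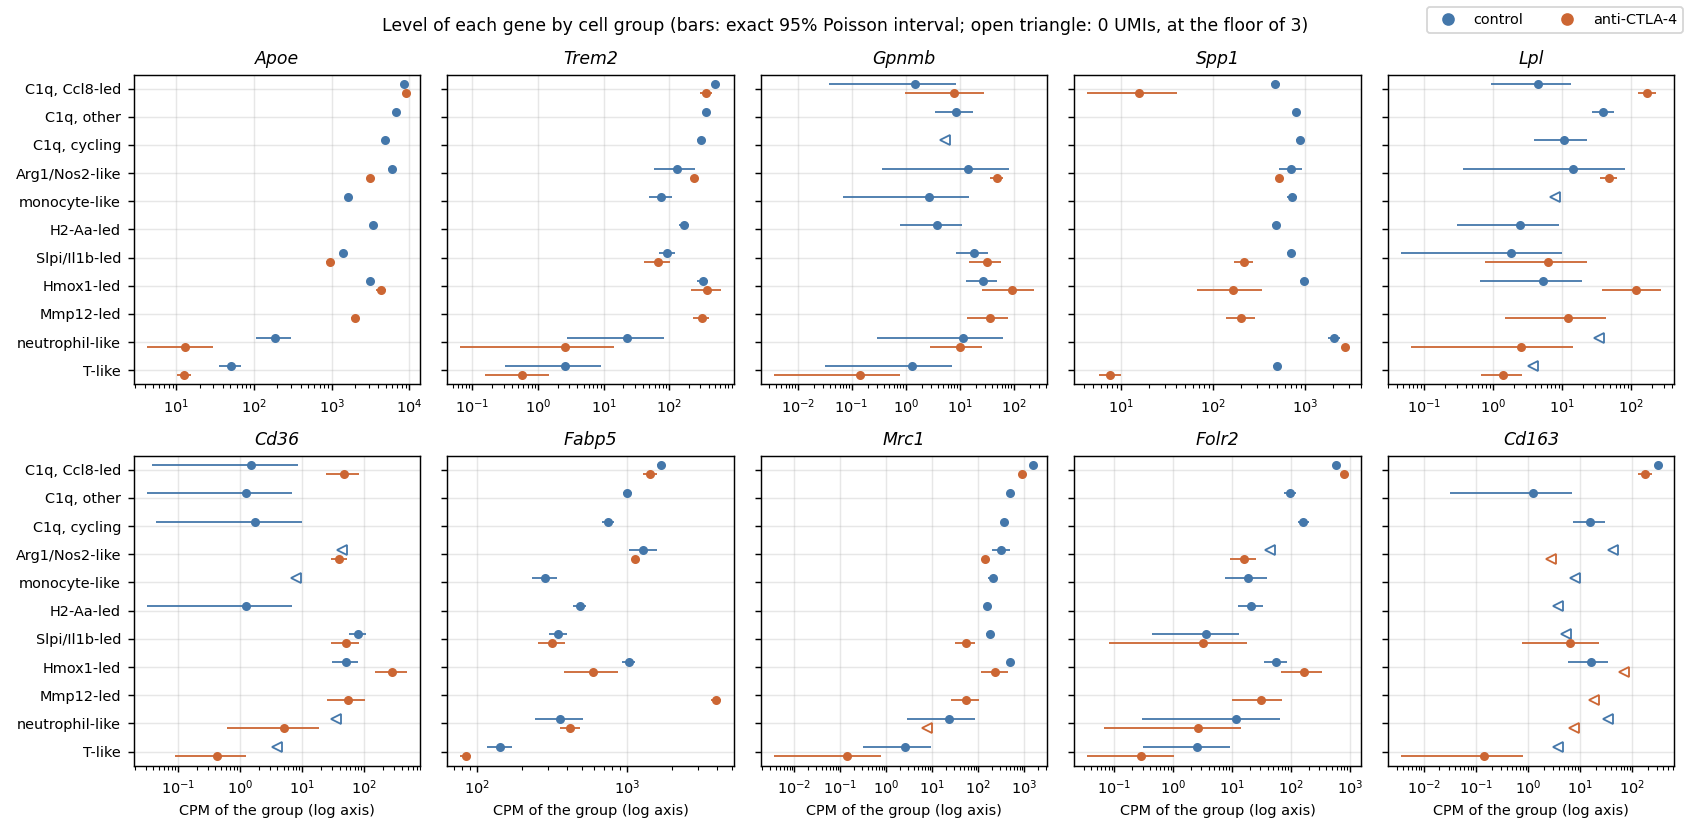
Level of each of the 10 genes (CPM, log axis) in the myeloid groups and in T-like cells of the control and anti-CTLA-4 libraries, with exact 95% counting intervals. Mrc1, Folr2 and Cd163 are highest in the C1q groups, and Spp1 in control macrophages lies near the T-like level.

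Apoe was highest in C1q macrophage-like cells, except that in the control a 15-cell Mmp19-led subcluster ranked above them where at least 500 genes per cell were asked. It stood there at 7539 CPM in the control (11055 UMIs; interval 7399 to 7681) and at 8923 CPM in the anti-CTLA-4 library (2733 UMIs; 8592 to 9264). Among control myeloid groups the order below was Arg1/Nos2-like cells at 5947 CPM, cycling C1q cells at 4795 CPM, the H2-Aa-led subcluster at 3445 CPM, the Hmox1-led subcluster at 3080 CPM, a shallow Crabp1-led subcluster at 2736 CPM, monocyte-like cells at 1621 CPM and the Slpi-led subcluster at 1383 CPM. T-like cells had 50.2 and 12.8 CPM, the level taken as that of free RNA. After each cell was thinned to 1000 UMIs, 93.1% of control and 91.8% of anti-CTLA-4 C1q cells had an Apoe UMI, against 4.67% and 1.57% of T-like cells. Median depths before thinning were 3669 and 5145 UMIs in C1q cells and 1834 and 3161 in T-like cells.

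Trem2 was also highest in C1q cells of the control, and spread over more groups in the anti-CTLA-4 library. In the control it was 425.5 CPM in C1q cells (624 UMIs; 392.8 to 460.3), 324.7 CPM in the Hmox1-led subcluster, 130.5 CPM in Arg1/Nos2-like cells and 75.1 CPM in monocyte-like cells, with 2.6 CPM in T-like cells. In the anti-CTLA-4 library the Hmox1-led subcluster had 378.5 CPM, C1q cells 355.9 CPM, the Mmp12-led subcluster 311.2 CPM and Arg1/Nos2-like cells 243.1 CPM. Counting intervals of neighbours in that order overlapped. After thinning, 87 of 290 control and 10 of 49 anti-CTLA-4 C1q cells had a Trem2 UMI, against 0% and 0.112% of T-like cells. Arg1/Nos2-like cells held 47.6% of all Trem2 UMIs of the anti-CTLA-4 library.

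Mrc1, Folr2 and Cd163 were highest in the C1q cells of both libraries. Mrc1 stood in control C1q cells at 980.7 CPM (1438 UMIs), in the Hmox1-led subcluster at 491.0 CPM and in monocyte-like cells at 206.6 CPM. Anti-CTLA-4 C1q cells had 832.5 CPM of Mrc1, and Arg1/Nos2-like cells 140.5 CPM. Folr2 was 311.7 CPM in control C1q cells (457 UMIs) and 692.2 CPM in anti-CTLA-4 C1q cells (212 UMIs), against 18.8 CPM in control monocyte-like and 15.7 CPM in anti-CTLA-4 Arg1/Nos2-like cells. Cd163 was 143.9 and 146.9 CPM in C1q cells (211 and 45 UMIs), with 0 UMIs in the 107 control monocyte-like cells and in the 142 anti-CTLA-4 Arg1/Nos2-like cells. T-like cells had at most 2.6 CPM of any of the 3 genes. After thinning, 43.1% of control and 46.9% of anti-CTLA-4 C1q cells had a UMI of Mrc1, 16.6% and 46.9% of Folr2, and 6.90% and 4.08% of Cd163, where T-like cells had at most 0.333%.

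The promoter windows of Mrc1, Folr2 and Cd163 are shown because these genes were high in the same subcluster. Each runs from 250 bases before to 50 after a RefSeq transcription start on GRCm38.p6, 5′ to 3′ on the gene's strand, and capitals mark GGAAGT or its reverse complement ACTTCC, the core bound by ETS factors such as PU.1, which is required for macrophage development. The Mrc1 window is chr2:14229164-14229463 on the plus strand, that of Folr2 chr7:101857141-101857440 on the minus strand, and that of Cd163 chr6:124304401-124304700 on the plus strand.
Mrc1: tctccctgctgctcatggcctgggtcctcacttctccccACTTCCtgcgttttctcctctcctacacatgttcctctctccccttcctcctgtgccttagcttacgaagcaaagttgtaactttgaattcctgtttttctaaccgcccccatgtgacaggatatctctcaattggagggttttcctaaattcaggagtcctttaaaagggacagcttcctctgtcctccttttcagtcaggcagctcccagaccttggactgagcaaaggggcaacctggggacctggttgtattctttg
Folr2: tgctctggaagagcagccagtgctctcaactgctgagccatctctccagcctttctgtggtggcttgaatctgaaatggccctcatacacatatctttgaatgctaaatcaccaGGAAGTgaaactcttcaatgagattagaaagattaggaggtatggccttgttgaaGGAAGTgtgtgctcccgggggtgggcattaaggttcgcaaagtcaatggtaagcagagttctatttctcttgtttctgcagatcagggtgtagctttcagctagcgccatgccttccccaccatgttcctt
Cd163: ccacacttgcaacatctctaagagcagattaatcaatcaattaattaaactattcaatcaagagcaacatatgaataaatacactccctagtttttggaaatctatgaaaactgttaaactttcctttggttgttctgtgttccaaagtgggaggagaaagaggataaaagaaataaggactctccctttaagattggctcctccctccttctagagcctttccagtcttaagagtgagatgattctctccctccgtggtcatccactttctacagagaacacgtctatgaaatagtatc
The Mrc1 window held the core 1 time, the printed Folr2 window 2 times and the Cd163 window 0 times. A second Folr2 window (chr7:101845282-101845581) held it 0 times and has the TGANTCA match counted below. Of 32851 promoter windows of this length, 23.8% held GGAAGT on either strand, and of the 12 windows found for the 10 genes 4 did (Cd36, Folr2, Mrc1 and Spp1). RefSeq windows were matched for 8 genes, without Lpl and Fabp5. The longer letters GAGGAAGT, which contain the core, occurred in 3.2% of all windows and in that of Spp1. The microphthalmia-family motif TCACATG was found in 3.99% of windows and in that of Mrc1, and CACGTG in 7.15% and in none of the 12. AGGTCA, only a part of most nuclear receptor elements (16.3% of windows), was found for Cd36 and Trem2. TGANTCA of AP-1 (7.81%) was found for Folr2, Gpnmb and Trem2. TGCTGA, only a part of the full MAF element (19.5%), was found for Cd36 and Folr2. These are matches of letters and no evidence of binding.

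Compared with monocyte-like cells of the control library, 6 of the 7 members with at least 50 UMIs over both groups were at least 2-fold higher in C1q macrophage-like cells, cycling cells included (416 against 107 cells). Over all 4786 genes counted as deeply, 15.1% were at least 2-fold higher, 9.21% at least 2-fold lower, and 24.4% passed 2-fold in either direction. Apoe was 4.18-fold higher (3.85 to 4.54), Trem2 5.22-fold (3.59 to 7.91), Mrc1 3.92-fold (3.12 to 5.00), Fabp5 4.05-fold (3.34 to 4.97) and Folr2 14.4-fold (6.94 to 36.0). Cd163 had 220 UMIs against 0, which is at least 13.4-fold against a floor of 3 counts. Spp1 was equal within counting error at 0.993 times (0.871 to 1.14). Lpl (41 against 0 UMIs), Cd36 (3 against 0) and Gpnmb (8 against 1) were too sparse to be read. Fabp5 lost its call, at 1.41-fold, where cells were grouped by their C1q UMIs in place of clusters.

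The other genes of these pathways, which were not left out of the clustering, moved unevenly between the same groups. Of 12 scavenger and resident macrophage genes read, 6 were at least 2-fold higher in C1q cells and 0 lower, with a list median log2 ratio of 1.26 beside 0.10 over all genes. They were Cbr2 (15.8-fold), the scavenger receptor Stab1 (11.1-fold), the chemokine Pf4 (6.85-fold), the lectin Clec10a (3.42-fold), the selenium carrier Selenop (3.16-fold) and Gas6, a ligand of TAM receptors (286 against 0 UMIs). Of 13 lipid uptake and export genes, 4 were higher, namely the cholesterol exporter Abca1 (5.74-fold), the phospholipid carrier Pltp (5.52-fold), Npc1 (4.03-fold) and the lysosomal lipase Lipa (2.11-fold), while Apoc2 was lower (0.422 times). Of 16 TREM2 signalling and lysosome genes, 5 were higher, led by Cd63 (6.75-fold), and 2 lower, Lilrb4a (0.424 times) and Plcg2 (0.461 times). Of 9 lipid-sensing factors only Nr1h3, which encodes the oxysterol receptor LXR alpha, passed 2-fold (4.64-fold higher), and of 7 fatty acid and lipid droplet genes 0 did. Among 6 osteopontin receptor genes Itga9 (9.98-fold) and Itgb5 (5.09-fold) were higher and Itga4 (0.412 times) lower.

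In the anti-CTLA-4 library only 10 monocyte-like cells were found, so Arg1/Nos2-like cells, a group with arginase and inducible nitric oxide synthase, gave the contrast (56 C1q against 142 cells). Of 3311 genes read, 17% passed 2-fold in either direction. Folr2 was 43.9-fold higher in C1q cells (26.8 to 76.8), Mrc1 5.90-fold (4.81 to 7.26), Lpl 3.92-fold (2.65 to 5.82) and Apoe 2.86-fold. Gpnmb was lower at 0.133 times (0.0157 to 0.504; 2 against 53 UMIs), as was Spp1 at 0.207 times. Trem2 (1.46-fold), Fabp5 (1.14-fold) and Cd36 (1.06-fold) stayed within 2-fold. Folr2, Mrc1, Lpl and Apoe thus lay on the C1q side of this contrast, and Gpnmb and Spp1 on the other. Most Spp1 UMIs of these C1q cells came from a single cell, as given below. Cd163 (45 against 0 UMIs) did not reach 50 UMIs.

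The C1q cells were not uniform for Mrc1, Folr2 and Cd163. A subcluster led by the chemokine Ccl8 contained 122 control cells and 46 anti-CTLA-4 cells, and the other C1q subcluster 207 and 9. In the control, Cd163 had 210 UMIs in 38 Ccl8-led cells and 1 UMI in the other subcluster, a ratio of 258 (45.8 to 1.02e+04). Folr2 was 574.4 against 97.7 CPM, 5.88-fold higher (4.60 to 7.59), and Mrc1 1568 against 502.3 CPM, 3.12-fold higher (2.78 to 3.51). Over all 3345 genes read, 4.19% were at least 2-fold higher in the Ccl8-led cells. Fabp5 (1.67-fold), Trem2 (1.37-fold), Apoe (1.30-fold) and Spp1 (0.593 times) were within 2-fold. Lpl ran the other way, with 3 UMIs in Ccl8-led cells against 32, under the minimum of 50.

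Of 11 scavenger and resident macrophage genes read, 8 were also at least 2-fold higher in the Ccl8-led cells and 0 lower, with a median log2 ratio of 1.76 beside 0.02 over all genes. They were Clec10a (16.0-fold), Cbr2 (11.5-fold), Gas6 (8.34-fold), the transglutaminase F13a1 (6.43-fold), Pf4 (3.80-fold), Selenop (3.38-fold), Stab1 (3.19-fold) and the transcription factor Maf (2.84-fold). Unlike the members, list genes were not left out of the clustering, and Cbr2, Pf4 and Selenop were among the leading genes of this subcluster. Their share past 2-fold is therefore not independent of the grouping. Of 11 lipid uptake and export genes 0 passed 2-fold in either direction. Cycling C1q cells stood lower for Mrc1, Folr2 and Cd163. Cells without cycling genes exceeded them 9.10-fold for Cd163 (4.70 to 20.2) and 2.63-fold for Mrc1, where 5.48% of 4251 genes were at least 2-fold higher, while Folr2 (1.91-fold), Fabp5 (1.75-fold), Apoe (1.57-fold), Trem2 (1.38-fold) and Spp1 (0.743 times) were within 2-fold.

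**Figure D2:**
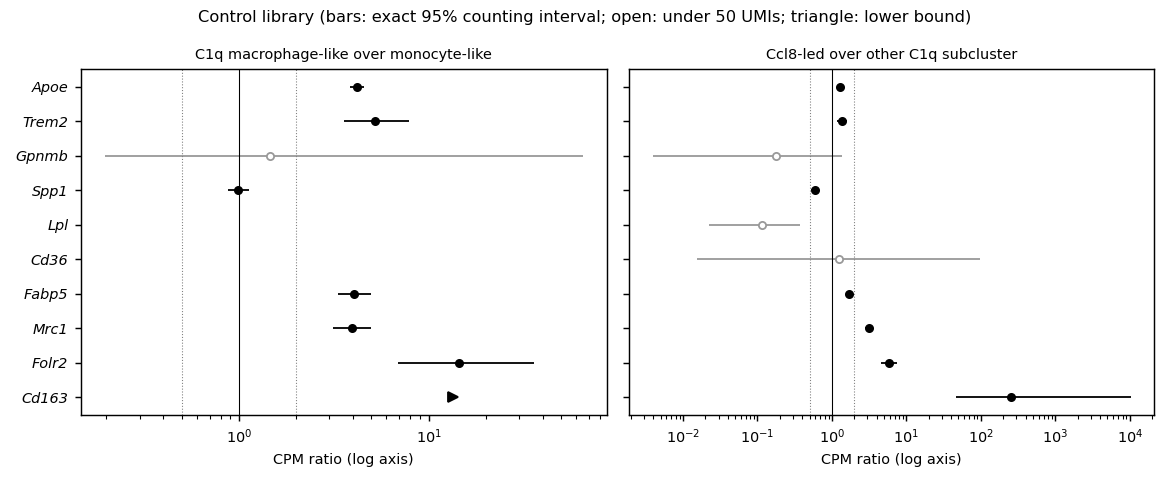
Ratios of CPM (log axis) in the control library for C1q macrophage-like over monocyte-like cells and for Ccl8-led over other C1q cells, with exact 95% intervals. Cd163, Folr2 and Mrc1 are above 2-fold in both contrasts, and Spp1 is at 0.993 and 0.593.

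Between libraries, 3 of the 8 members read in C1q macrophage-like cells differed by more than 2-fold, where 19.7% of all 3877 genes did. Lpl was 23.9 CPM in the control (35 UMIs in 9 of 329 cells) and 189.4 CPM in the anti-CTLA-4 library (58 UMIs in 12 of 55 cells), a ratio of 7.93 (5.13 to 12.4). The fullest cell held 17 Lpl UMIs in each library, and after thinning 1.03% and 8.16% of C1q cells had one, against 0% and 0.224% of T-like cells. Folr2 was 2.22-fold higher (1.88 to 2.62). Spp1 was lower at 0.165 times (0.113 to 0.234). Apoe (1.18; 1.13 to 1.23), Cd163 (1.02; 0.723 to 1.41), Fabp5 (0.972), Mrc1 (0.849; 0.74 to 0.971) and Trem2 (0.836; 0.676 to 1.03) were within 2-fold, and Cd36 (13 against 2 UMIs) and Gpnmb (2 against 8) were too sparse.

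The makeup of the C1q group differed between libraries, and its part in these ratios was not tested. Ccl8-led cells made up 122 of 329 C1q cells of control tissue and 46 of 55 after anti-CTLA-4. Within the Ccl8-led cells, where 19% of 2284 genes passed 2-fold, Folr2 was 1.41-fold higher (1.19 to 1.68), Mrc1 0.585 times (0.505 to 0.675) and Cd163 0.555 times (0.393 to 0.769), so the Folr2 call ended. Only Spp1 of the members read stayed past 2-fold there (0.0333 times, 4 against 311 UMIs). This fall was not particular to macrophages. Spp1 was also lower in T-like (0.0153 times), B-like (0.0461 times) and NK-like cells (0.0942 times), while neutrophil-like cells stood at 1.34. Lpl had 44 UMIs in the Ccl8-led cells of the anti-CTLA-4 library against 3, a ratio of 38.0 (12.2 to 191) that did not reach 50 UMIs. Over the whole monocyte/macrophage-like class, where 10.8% of 7614 genes passed 2-fold, Mrc1 was 0.361 times (0.326 to 0.399) and Cd163 0.351 times (0.252 to 0.481), and Gpnmb (4.25-fold), Lpl (4.13-fold) and Cd36 (2.25-fold) were higher. Different groups made up most of the class in each library, with 142 of 442 anti-CTLA-4 cells being Arg1/Nos2-like against 22 of 1111 in the control.

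**Figure D3:**
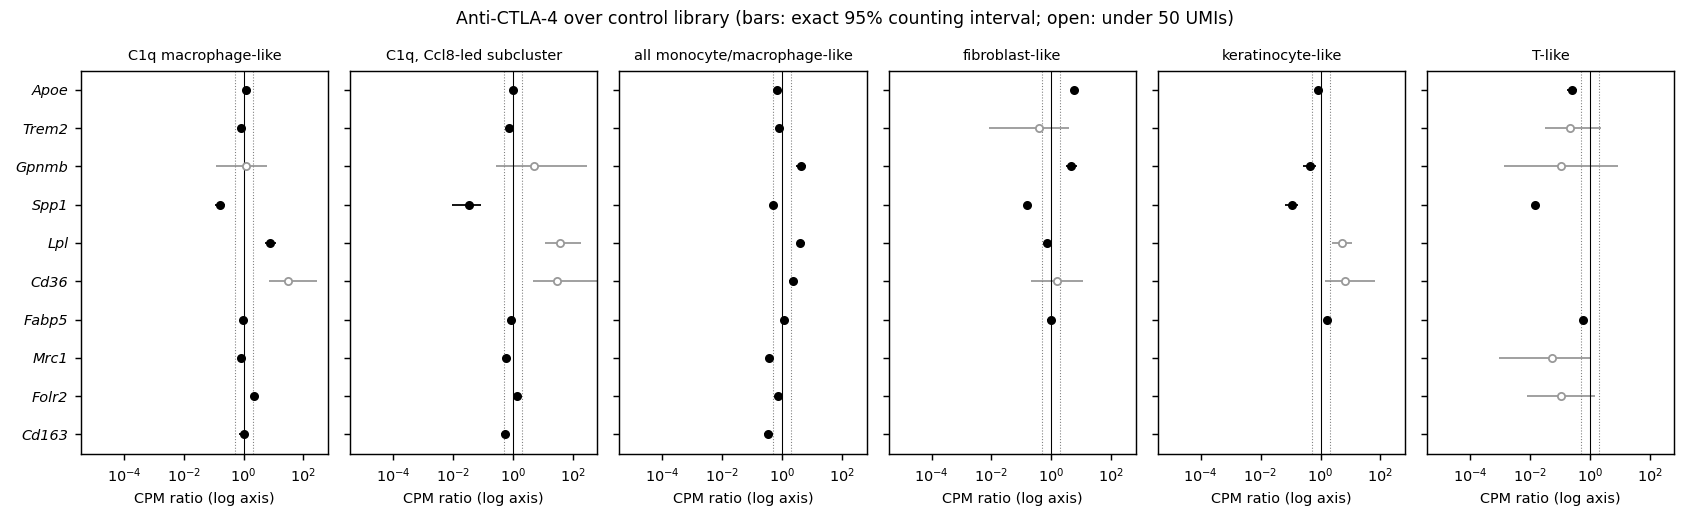
Ratio of CPM in the anti-CTLA-4 over the control library (log axis) for each gene in C1q macrophage-like cells and further groups, with exact 95% intervals and lines at 2-fold. In C1q cells Lpl (7.93) and Folr2 (2.22) lie above and Spp1 (0.165) below.

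In the same C1q cells, 8.85% of all genes read were at least 2-fold higher in the anti-CTLA-4 library and 10.9% lower. Of 13 lipid uptake and export genes read, 6 were higher and 1 lower, with a median log2 ratio of 0.9999 beside -0.06 over all genes. They were Abca1 (4.34-fold; 3.45 to 5.47), Pltp (3.99-fold), the exporter Abcg1 (3.59-fold), Lipa (2.94-fold), the cholesterol ester hydrolase Nceh1 (2.35-fold) and the esterifying enzyme Soat1 (2.07-fold), with Apoc2 lower (0.414 times). The same 6 were past 2-fold in the Ccl8-led cells alone, Abca1 at 3.81-fold and Soat1 at 2.02-fold, of 9 read, where 9.5% of all genes were higher. The droplet coat protein Plin2 (2.54-fold) and Cpt1a (2.22-fold), which brings fatty acids into mitochondria, were higher of 5 fatty acid genes read. Of 16 TREM2 signalling and lysosome genes, Ctsd (2.37-fold) and Syk (2.25-fold) were higher, a share near that of all genes, while Tyrobp was 0.88 times. Among 7 factors Cebpb (2.98-fold) and Cebpa (2.24-fold) passed, and Nr1h3 stood at 1.90-fold. Cd44 (2.37-fold) was higher among 5 osteopontin receptor genes. Selenop, Pf4 and Cbr2 were 2.88-, 2.34- and 2.05-fold higher among 11 scavenger genes, but 0 of the 10 read in the Ccl8-led cells alone passed 2-fold. Abca1, Plin2 and Cebpb were also among the leading genes of Arg1/Nos2-like cells, of which there were 22 in the control and 142 after anti-CTLA-4. The part of that group's RNA in these ratios was not tested.

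By CPM, Spp1 in control macrophages lay near the level of T-like cells, and the part of other cells' RNA in it was not tested. Ptprc-negative cells, which lack the leukocyte gene Ptprc, accounted for 98.1% of the control Spp1 UMIs, at 7336 CPM. C1q cells had 651.3 CPM, monocyte-like cells 719.1 CPM and T-like cells 500.4 CPM, and 41.0% of thinned C1q cells had an Spp1 UMI against 40.3% of T-like cells. T-like cells were shallower, with a median of 1834 UMIs against 3669 in C1q cells. Per cell, Spp1 had 2.90 UMIs in C1q, 2.50 in monocyte-like and 5.74 in cycling C1q cells. T-like cells had 1.07, B-like cells 0.889 and NK-like cells 3.58. Crabp1, a gene that leads the Ptprc-negative cells, gave a second measure of their RNA in other cells. Crabp1 UMIs per cell were 1.47 in C1q, 0.991 in monocyte-like, 0.981 in T-like, 0.927 in NK-like and 1.86 in B-like cells. There were 1.47 Spp1 UMIs per Crabp1 UMI in Ptprc-negative cells, 1.09 in T-like, 1.07 in Ccl8-led, 3.39 in the other C1q and 4.71 in cycling C1q cells, with NK-like cells at 3.86 and B-like cells at 0.478, so the ratio did not separate macrophages from lymphocytes. Subtracting each library's T-like CPM brought the C1q ratio between libraries from 0.165 to 0.663, which ends the call in that unit only. T-like cells were shallower, so an equal CPM stands for more UMIs in a C1q cell than in a T-like cell. Per control cell, C1q cells had 2.90 Spp1 UMIs and T-like cells 1.07. Whether the call also ends when UMIs per cell are subtracted was not tested.

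In the anti-CTLA-4 library Spp1 was clearer of that background. T-like cells had 7.7 CPM, and Crabp1 had 0 UMIs in the whole monocyte/macrophage-like class beside 954 of Spp1. Arg1/Nos2-like cells had 518.6 CPM (561 UMIs in 45 of 142 cells), neutrophil-like cells 2740 CPM (1061 UMIs in 73 of 219 cells) and C1q cells 107.7 CPM, 27 of whose 33 UMIs came from 1 cell. Control neutrophil-like cells had 2039 CPM, a ratio of 1.34 (1.14 to 1.58) where 28% of 963 genes passed 2-fold. Neutrophil markers summed to 73662 and 81446 CPM in these cells. The Ptprc-negative cells numbered 2914 in the control and 45 in the anti-CTLA-4 library, where they had 2957 CPM.

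Fibroblast-like cells held most Lpl UMIs in both libraries, and endothelial-like cells most Cd36 UMIs in the control. Fibroblast-like cells had 397.4 CPM of Lpl in the control (497 UMIs, 85.7% of the library's) and 295.1 CPM in the anti-CTLA-4 library (231 UMIs, 52.3%), a ratio of 0.743 where 13% of 4500 genes passed 2-fold. C1q cells held 13.1% of anti-CTLA-4 Lpl UMIs. Endothelial-like cells, of which there were 35 and 16, had 556.3 and 759.3 CPM of Cd36 (146 and 93 UMIs, 61.1% and 32.9% of each library's). The monocyte/macrophage-like class held 31.4% of Cd36 UMIs in control and 34.6% in anti-CTLA-4 cells. Among control monocyte/macrophage-like groups of at least 15 cells the Slpi-led subcluster was highest, with 77.9 CPM (43 UMIs in 15 of 110 cells), while C1q cells had 1.4 CPM (2 UMIs). In the anti-CTLA-4 library the Hmox1-led subcluster had 283.9 CPM of Cd36 (12 UMIs in 18 cells), the Slpi-led 50.6 CPM, C1q cells 42.4 CPM and Arg1/Nos2-like cells 39.8 CPM, with wide intervals. B-like cells held 42 Cd36 UMIs in 9 of 620 cells, 28 of them in 1 cell.

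Fabp5 was shared between epithelium, endothelium and macrophages. Endothelial-like cells had 1391 CPM in the control (365 UMIs) and 636.8 CPM in the anti-CTLA-4 library (78 UMIs). Keratinocyte-like cells had 2581 and 4362 CPM in the control and anti-CTLA-4 libraries, and 1 cell gave 1033 of the 3535 anti-CTLA-4 UMIs. C1q cells had 1310 and 1273 CPM and Arg1/Nos2-like cells 1291 and 1141 CPM, against 142.8 and 84.1 CPM in T-like cells. After thinning, 43.1% and 40.8% of C1q cells had a Fabp5 UMI, against 6.33% and 4.09% of T-like cells. The Mmp12-led subcluster of the anti-CTLA-4 library had 3924 CPM (643 UMIs in 59 of 76 cells), above the other myeloid groups of at least 15 cells in that library. That subcluster had a median of 1710.5 UMIs per cell over both libraries and held 4 control cells.

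Gpnmb was low in C1q cells of both libraries (8 and 2 UMIs). In the control it was highest in keratinocyte-like cells at 66.2 CPM (73 UMIs, 29 in 1 cell), with 26.4 CPM in fibroblast-like cells and 15.7 CPM in Ptprc-negative cells, whose number gave them 88.7% of all Gpnmb UMIs. In the anti-CTLA-4 library fibroblast-like cells had 123.9 CPM (97 UMIs in 22 of 122 cells) and Arg1/Nos2-like cells 49.0 CPM (53 UMIs in 14 cells). Melanocyte markers summed to 755.1 CPM in those fibroblast-like cells against 8.8 CPM in the control ones, with all 5 of the 5 markers above 0 in both. Their part in the Gpnmb value was not tested.

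Keratinocyte-like cells were also the main holders of Apoe outside the myeloid class, at 3412 CPM in the control and 2754 CPM in the anti-CTLA-4 library. Macrophage C1q markers summed to 214.9 and 55.5 CPM there, and the part of macrophage RNA in these Apoe values was not tested. B-like cells had 269.1 CPM in the control (40 UMIs) and 450.0 CPM in the anti-CTLA-4 library (1021 UMIs in 283 of 620 cells, 8.82% of the library's), with a C1q marker sum of 14.5 CPM in the latter. Between libraries, Apoe stayed within 2-fold in keratinocyte-like cells (0.807), where 17% of 4389 genes did not, and was lower in T-like cells (0.255), where 9.03% of 7730 genes passed 2-fold.

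**Figure D4:**
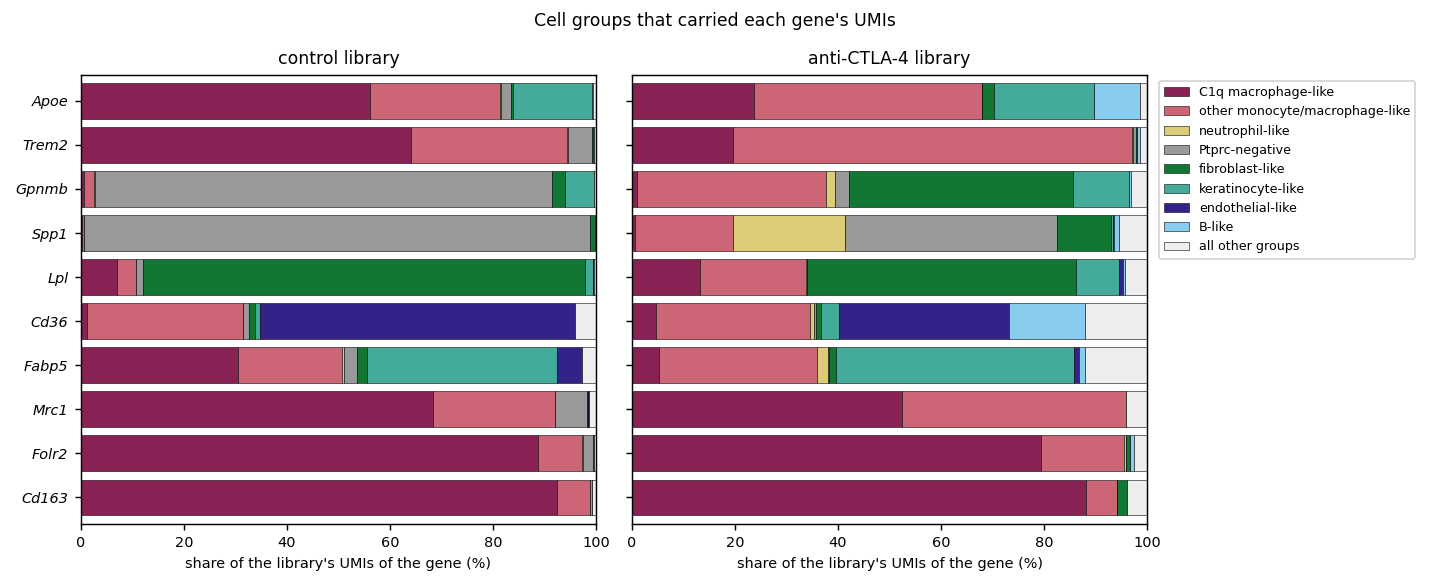
Share of each gene's UMIs (percent of the library's total for that gene) held by groups of cells in the control and anti-CTLA-4 libraries. Trem2, Mrc1, Folr2 and Cd163 lie almost wholly in the monocyte/macrophage-like class, whereas Lpl lies in fibroblast-like and control Spp1 and Gpnmb in Ptprc-negative cells.

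Within single C1q cells, the median pair of members occurred together about as often as the separate frequencies gave. After thinning to 1000 UMIs, the median C1q cell had 3 of the 10 genes in both libraries (290 and 49 cells, with 39 and 6 too shallow), the median monocyte-like cell 1 and the median T-like cell 0. Among Ccl8-led control cells 44.4% of 117 had at least 4 members, against 13.9% of 173 other C1q cells. Of 45 pairs, 20 had at least 5 expected joint cells in control C1q cells, and their ratio of observed to expected cells had a median of 1.04. It was highest for Mrc1 with Cd163, seen in 13 cells where 8.62 were expected (1.51), and 1.45 for Mrc1 with Folr2 (30 cells against 20.7). Within the Ccl8-led cells alone 0 of 21 pairs reached 1.5, the highest being 1.25. All 3 of Mrc1, Folr2 and Cd163 were seen together in 4 control cells, all Ccl8-led, and in 1 anti-CTLA-4 cell.

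Over the whole control class (957 cells) 4 of 21 pairs reached 1.5, namely Mrc1 with Cd163 (2.59), Fabp5 with Cd163 (2.02), Mrc1 with Folr2 (1.86) and Trem2 with Folr2 (1.56). Apoe with Lpl was the lowest at 0.394 (3 cells against 7.62), and Apoe with Cd36 stood at 0.492. In the anti-CTLA-4 class (364 cells) 1 of 17 pairs did, Apoe with Folr2 (1.66), and Spp1 with Mrc1 was lowest at 0.660. Thinned to 2000 UMIs (307 cells), Mrc1 with Folr2 was highest at 3.48 (29 cells against 8.33) and Spp1 with Folr2 lowest at 0.158 (1 against 6.33), both pairs having under 5 expected cells at 1000 UMIs.

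**Figure D5:**
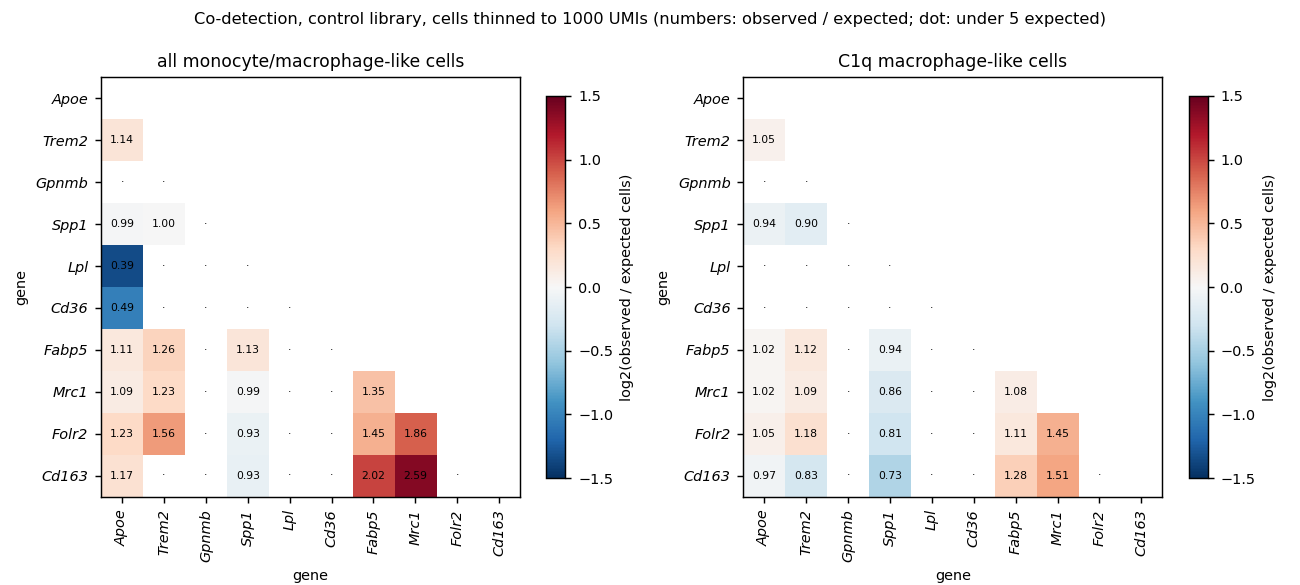
Observed over expected cells with a UMI of both genes, after thinning to 1000 UMIs, for pairs with at least 5 expected cells. Pairs in control C1q cells range from 0.731 to 1.51, and those over the whole control class from 0.394 to 2.59.

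Across 26 combinations of cell group and library with at least 50 cells, the genes with the most similar pattern of log2(CPM + 10) were Pf4 for Trem2 (Pearson r = 0.97), Stab1 for Mrc1 (0.96), Fcna for Folr2 (0.93) and Folr2 for Cd163 (0.91). For Gpnmb, Lpl, Cd36, Fabp5 and Spp1 they were Sphk1 (0.86), Il11ra1 (0.92), Gclc (0.83), Prxl2b (0.84) and Upp1 (0.81). The points share libraries and free RNA, and the values are a description.

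On GRCm38 with GENCODE M21, Apoe lies at chr7:19696109-19699188 and Folr2 at chr7:101839988-101857194, both on the minus strand, where Folr2 overlaps Gm10602 on the opposite strand. Spp1 lies at chr5:104435118-104441050 on the plus strand, overlapping Gm42793, and Cd36 at chr5:17781690-17888801 on the minus strand. The plus strand holds Trem2 (chr17:48346401-48354147), Gpnmb (chr6:49036546-49070929), Cd163 (chr6:124304656-124330527), Lpl (chr8:68880491-68907448), Fabp5 (chr3:10012548-10016607) and Mrc1 (chr2:14229392-14332057), which overlaps Mir511. Counts of overlapping genes may include reads of their partners.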

How the data were processed

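The deposited expression matrices give unnormalized UMI counts for each gene and barcode, from a 5' immune profiling kit (version 1.1, target 5000 cells, per the labels' protocols). Cell Ranger 5.0.0 and mm10/GRCm38 are named in the submitters' processing notes, but the sources used here give no annotation release. The feature list has 32285 rows, and rows sharing a symbol were summed.

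Barcodes under 200 genes or above 15% mitochondrial UMIs were dropped. Scrublet's automatic threshold marked 0 control and 1 anti-CTLA-4 barcode, so the highest scores at the expected rate (0.8% per 1000 barcodes) were removed instead, 248 and 137. Libraries were clustered together (scanpy 1.11.5, leidenalg 0.10.2; 2000 variable genes, 30 components, 15 neighbours, resolution 1) without the 10 members. Names need at least 3 markers in 20% of cells and a mean log2 fold of 1, or 0.5 for subclusters, thresholds set after the data were seen. Shares can therefore differ from the study's. The 5 myeloid barcodes with a TCR contig all lay in an unnamed subcluster with T cell genes.

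UMIs were summed per group and divided by the group total (CPM), with exact Poisson intervals. Ratios have exact conditional binomial intervals (scipy 1.17.1) and are read from 50 UMIs over both sides, past 2-fold being the call, and the floor for a count of 0 is 3 counts. The calculation was tested on simulated Poisson counts, which checks the interval arithmetic only. Such counts lack the clumping of UMIs in single cells seen here. Named are all 10 members, genes of 6 lists (82 genes) past 2-fold or with most UMIs, and the genes most alike each member by Pearson r, 1 of which is not reported here. The members and lists were chosen with earlier results of these data known. Alternatives were other mitochondrial, gene and UMI minimums, doublets kept, other resolutions, thinning to 2000 UMIs, equal weight per cell, free RNA subtracted and grouping by C1q UMIs. Of 5 libraries, the BCR library was not used here.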

Additional observations from a re-analysis of the deposited data

Results flagged for a closer look

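Apoe differed between the libraries in opposite directions in fibroblast-like and T-like cells. It was 58.4 CPM in control and 338.6 CPM in anti-CTLA-4 fibroblast-like cells, a ratio of 5.80 (4.46 to 7.62) where 13% of genes passed 2-fold. In T-like cells it was 50.2 and 12.8 CPM, a ratio of 0.255 (0.173 to 0.381) where 9.03% did. Monocyte/macrophage markers summed to 279.8 and 263.2 CPM in the fibroblast-like cells and to 420.6 and 172.7 CPM in the T-like cells. Gpnmb was 4.70-fold higher in fibroblast-like cells (3.14 to 7.20; 33 and 97 UMIs) and 0.447 times in keratinocyte-like cells (0.27 to 0.718; 73 and 24 UMIs), where 17% of genes passed 2-fold. As given above, a single cell held a large part of the control keratinocyte-like UMIs, which the counting interval does not cover. Melanocyte markers were also higher in the anti-CTLA-4 fibroblast-like cells. The difference between groups was not tested in either case, and the part of other cells' RNA in it was not tested.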

How the results depend on the processing

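Members past 2-fold between libraries in C1q cells numbered 3, and 1 in the Ccl8-led subcluster alone, an alternative added after seeing the data. Pathway genes past 2-fold numbered 17, and 11 with at least 200 UMIs, where fewer genes are read, and 11 in the Ccl8-led subcluster alone. The other 46 summary values stayed within 1.5 times. Of 435 single values, 288 moved by less than their interval, 147 by more and 0 called values reversed direction. The Folr2 ratio fell under 2-fold with doublets kept (1.59), at resolution 0.5 (1.59) and 2.0 (1.87), with members among the clustering genes (1.97), by C1q UMIs (1.90) and in Ccl8-led cells (1.41), and the cause was not tested. That of Lpl ranged from 5.25 to 15.2, and Lpl was not read with at least 500 genes or 200 UMIs. C1q cells exceeded monocyte-like cells for 6 members in every alternative that gave a value, though Fabp5 stood at 1.41 by C1q UMIs. No paired analysis was possible because each group has 1 library and no result comes from a test. Depth limits Cd36, Gpnmb and Lpl in C1q cells, which had 2 to 58 UMIs per library.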
